A study of Mus musculus with 12 samples.

Results

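The Hmga and Igf2bp genes described here are Hmga1, Hmga2, Igf2bp1, Igf2bp2 and Igf2bp3. They were taken by symbol from both deposited expression tables, and all 5 were present in each, out of 19429 genes listed in either table. Messenger RNA had been measured by RNA sequencing in 12 libraries of cultured stromal vascular fraction, the mixed non-adipocyte cells of fat tissue that include adipocyte progenitors. The cells were primary cultures from white adipose tissue of C57BL/6 mice aged 6 weeks, in 4 groups of 3 libraries. TKO cells lacked all 3 miR-26 genes, being miR-26b-/-, miR-26a-1-/- and miR-26a-2-/-, and WT cells were wild type. TKO and WT cells were harvested at confluency. Dox cells carried M2rtTA, a transactivator that doxycycline switches on, together with an eGFP.miR-26a transgene, and were kept with doxycycline at 1 mg/ml, as the labels give it, for 4 days. CTL cells carried the same M2rtTA and eGFP.miR-26a transgenes and were left untreated. The labels give no litter, no promoter that drives M2rtTA and no statement that replicates came from separate animals, so p-values measure only the spread between these libraries. CTL cells were not given doxycycline, so an effect of the drug itself and an effect of miR-26a cannot be told apart.

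HMGA proteins are small architectural chromatin factors whose AT-hooks bind the minor groove of AT-rich DNA and change how transcription factors gain access to it. They are abundant in embryonic and dividing mesenchymal cells and scarce in most adult tissues, and mice without Hmga2 are small and lean. The IGF2BP proteins, also called IMPs, bind messenger RNAs through RRM and KH domains and set their stability, transport and translation, with the growth factor messenger RNA Igf2 as the client that named them. In mouse cells Hmga2 was reported to promote Igf2bp2 transcription, which links the families. The let-7 microRNAs repress Hmga2 and the Igf2bp genes, and the Lin28 proteins block let-7 maturation.

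The microRNA sequences and the stretches of messenger RNA that can pair with them are shown because the groups differ in miR-26, while let-7 is the microRNA family known for repressing these genes. The mature microRNAs, from RefSeq on GRCm38.p6, are printed with the seed (bases 2 to 8) in capitals. miR-26a-5p is encoded at chr9:119031811-119031832 and chr10:126995543-126995564, and miR-26b-5p at chr1:74394324-74394344, all on the plus strand. One let-7 member, encoded at chr13:48538239-48538260 on the minus strand, stands for the 9 mature sequences of the let-7 and miR-98 family that carry the same seed.
mmu-miR-26a-5p: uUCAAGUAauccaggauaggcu
mmu-miR-26b-5p: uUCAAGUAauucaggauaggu
mmu-let-7a-5p: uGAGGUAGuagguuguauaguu
Both miR-26 sequences share the seed UCAAGUA, which differs from the let-7 seed GAGGUAG, so the families look for different letters.

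Seed matches were searched on the messenger strand of the 3' untranslated region (UTR) of 1 transcript per gene from GENCODE vM21 (GRCm38). A match was TACTTGA or ACTTGAA for miR-26 and CTACCTC or TACCTCA for let-7, and the joined forms TACTTGAA and CTACCTCA, the strongest type, were counted once. A miR-26 match was present in 2 of the 5 genes, Hmga1 and Hmga2. No annotated transcript of the 3 Igf2bp genes held one in its UTR. Of the 11834 genes tested between TKO and WT that have a UTR, 21.8% hold a miR-26 match. The miR-26 matches of Hmga1 and Hmga2 are printed 5' to 3' with the matching bases in capitals.
Hmga1, chr17:27563637-27563644, plus strand, exon 5: tttgcagtTACTTGAAtaaaaaac
Hmga2, chr10:120363690-120363696, minus strand, exon 6: tagacactTACTTGAtttttttt
Hmga2, chr10:120362351-120362357, minus strand, exon 6: tcaaagaaACTTGAAattttgct
The Hmga1 match has the joined form and lies at base 1146 of a UTR of 1178 bases, close to its end. The Hmga2 matches have the shorter forms and lie at bases 593 and 1932 of a UTR of 3014 bases.

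All 5 genes hold at least 1 let-7 match, against 17.2% of the tested genes with a UTR. Hmga2 has 7, a number reached or passed by 5 tested genes (0.0423%), and Igf2bp1 has 5 in a UTR of 6337 bases, reached or passed by 15 genes (0.127%). Igf2bp2 has 2 and Igf2bp3 and Hmga1 have 1 each. Longer UTRs hold more matches of any kind, and the UTR of Igf2bp2 is 1784 bases and that of Igf2bp3 2119 bases. The first joined-form match of each gene that has one is printed with the matching bases in capitals, and all lie on the minus strand.
Hmga2, chr10:120364224-120364231, exon 6: ttcaatttCTACCTCAgcatcagt
Igf2bp1, chr11:95961778-95961785, exon 15: gaagtaaaCTACCTCAaggtgtga
Igf2bp2, chr16:22059473-22059480, exon 16: aataaaagCTACCTCAggtgtttt
Igf2bp3, chr6:49086787-49086794, exon 15: ttactcaaCTACCTCAggtattca
In Igf2bp1 the printed match starts at base 1715 of the UTR and another follows at base 1734. In Igf2bp2 the printed match starts at base 1313 and the other at base 1330. A match is a description of the letters and not a measured binding site.

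The deposited values are scaled read counts from the authors, called signal here, and lie close to CPM. Depth was 71455171 to 83461531 recovered reads in TKO libraries, 54978109 to 61307152 in WT, 19301969 to 25785439 in Dox and 20182665 to 24122542 in CTL libraries. The stromal markers Pdgfra, Pdgfrb, Cd34, Ly6a, Dpp4, Thy1 and Col1a1 were all listed, with a summed signal of 12756 to 13977 in TKO and 12080 to 13466 in WT libraries, and of 15825 to 20372 in Dox and 16517 to 19850 in CTL libraries. Markers of 7 other cell types were low beside these, with sums of at most 263 in any library. The 6 macrophage markers, all listed, summed to 247 in TKO replicate 2, with 54.6 in TKO replicate 1, 47.1 in TKO replicate 3 and 34.7 to 54.4 in WT libraries. Of 5 adipocyte markers 4 were listed, and they summed to 115 and 112 in TKO replicates 1 and 2 and 28.9 in TKO replicate 3, against 28.1 to 30.9 in WT libraries. The deleted miR-26 genes themselves were not analysed here, so the genotype labels were not checked against them.

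Between genes, levels can be compared only per length of transcript, as signal per kilobase. Igf2bp2, a regulator of metabolic and mitochondrial messenger RNAs, averaged 21.1 ± 4.95 signal per kilobase in TKO, against 50.6 ± 2.51 in WT (SD, n = 3 each). Hmga2 averaged 14.6 ± 5.51 signal per kilobase in TKO and 35.8 ± 3.73 in WT. Hmga1 averaged 20.9 ± 4.08 in TKO and 18.9 ± 2.79 in WT on the same scale. In WT the order was Igf2bp2, Hmga2, Hmga1, Igf2bp3 and Igf2bp1, and none of the neighbours overlapped. The place of Hmga1 is uncertain here and in the other groups, because 69.1% of its 50-base stretches also occur elsewhere in the annotation. How reads from such stretches were counted is not given in the sources used here. In TKO the first 3 of these overlapped in their library values.

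Igf2bp3, like Igf2bp1 an embryonic form that most adult tissues switch off, averaged 4.86 ± 2.30 signal per kilobase in TKO and 7.92 ± 1.57 in WT. Igf2bp1 averaged 0.511 ± 0.230 in TKO and 0.468 ± 0.0825 in WT, the lowest of the 5 genes in all 12 libraries. Igf2bp2 therefore made up most of the Igf2bp signal per kilobase, with 66.5% to 88.9% in TKO and 82.6% to 88.4% in WT libraries. The same share was 82.3% to 89.5% in Dox and 78.7% to 89.7% in CTL libraries. The order of mean levels in Dox was Igf2bp2, Hmga1, Hmga2, Igf2bp3 and Igf2bp1, at 36.6, 18.5, 17.7, 5.34 and 0.488 signal per kilobase. In CTL it was the same, at 29.1, 24.3, 14.8, 4.49 and 0.373. Hmga1 and Hmga2 overlapped in both groups, and Igf2bp3 stood below the lowest Hmga2 library in each.

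Loss of miR-26 went with lower Hmga2 and Igf2bp2 messenger RNA. Of the 5 genes, 2 fell (Hmga2 and Igf2bp2), none rose and 3 did not pass the test in TKO against WT (limma, Benjamini-Hochberg adjusted over 12649 genes, threshold 0.05). Over all genes tested 45.8% passed that threshold, 23.2% as higher and 22.7% as lower, so a count of 2 in 5 is near the background. With all tested genes ordered by log2 fold change, Hmga2 stood at percentile 0.237 and Igf2bp2 at percentile 0.372 from the bottom. In bulk RNA such as this, fewer cells that express a gene and less RNA per cell cannot be told apart.

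Hmga2 had a signal of 67.0, 31.4 and 68.5 in TKO replicates 1, 2 and 3, against 150, 137 and 122 in WT replicates 1, 2 and 3. Every TKO library was below every WT library, and TKO replicate 2 was the lowest. Groups that did not overlap were common in this comparison, with 29.4% of tested genes lower in every TKO library. Mean signal was 55.7 ± 21.0 in TKO and 136 ± 14.2 in WT (SD, n = 3 each), 0.408 of the WT level. The difference of mean log2 values was -1.35 ± 0.29 (SE, adjusted p = 0.00995 by limma), with a 95% interval from -2.05 to -0.65. TKO replicate 2 also had the highest macrophage marker sum, and without it the fold change was -0.99 (adjusted p = 0.0013). In the authors' deposited table the log2 fold change was -1.29 with a false discovery rate of 0.000662. Mir26a-2, one of the deleted loci, lies on the same chromosome as Hmga2 (chr10:120361275-120476469, minus strand), 6.52 Mb away.

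**Figure D1:**
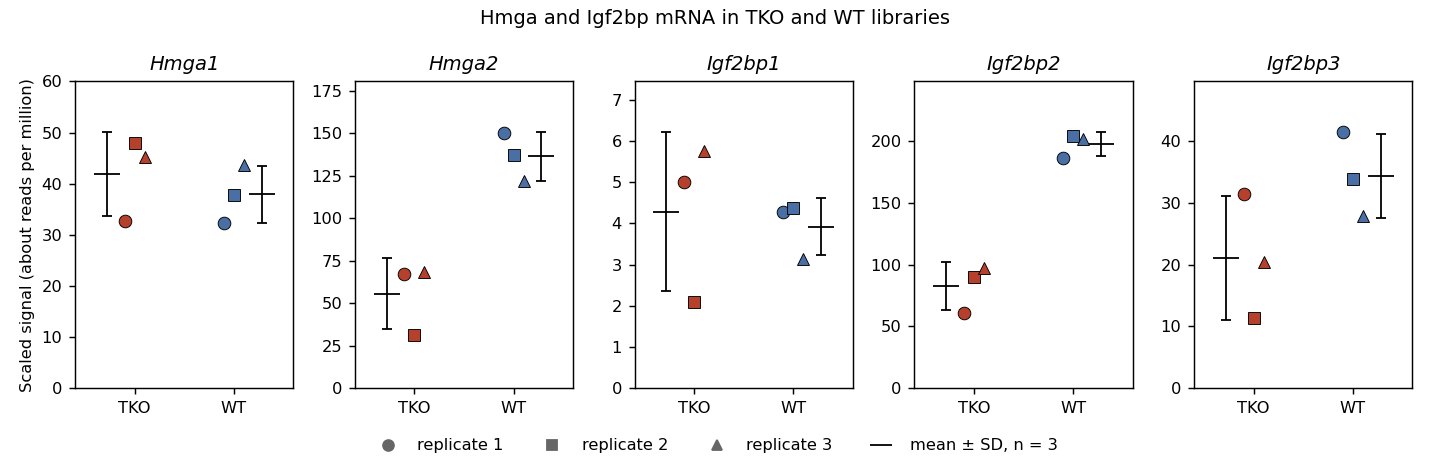
Scaled signal (close to CPM, y axis from 0) of the 5 genes in TKO (left) and WT (right) libraries, with 1 point per library, marker shape for the replicate number, and a bar for the mean ± SD of 3 libraries. Hmga2 and Igf2bp2 lie lower in all 3 TKO libraries than in any WT library, and the groups overlap for the other genes.

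Igf2bp2 (chr16:22059009-22163299, minus strand) had a signal of 60.6, 89.6 and 97.1 in TKO replicates 1, 2 and 3, against 186, 204 and 202 in WT replicates 1, 2 and 3. The highest TKO library stood far below the lowest WT library, and the lowest TKO library was replicate 1, not the replicate that was lowest for Hmga2. Mean signal was 82.4 ± 19.3 in TKO and 197 ± 9.79 in WT (SD, n = 3 each), 0.418 of the WT level. The difference of mean log2 values was -1.28 ± 0.17 (SE, adjusted p = 0.0017 by limma, 95% interval -1.69 to -0.87). The authors' deposited table gives -1.26 with a false discovery rate of 8.29e-10. No 50-base stretch of its transcript occurs in another annotated gene, and leaving out any 1 library kept the fold change between -1.41 and -1.07.

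Igf2bp3 (chr6:49085223-49214957, minus strand) had a signal of 31.4, 11.4 and 20.5 in TKO replicates 1, 2 and 3, against 41.5, 33.8 and 27.9 in WT replicates 1, 2 and 3. The groups overlapped, since TKO replicate 1 was above WT replicate 3, and TKO replicate 2 was again the lowest. A log2 fold change of -0.77 ± 0.34 did not pass the test (limma adjusted p = 0.108, 95% interval -1.58 to 0.04). Without TKO replicate 1 it was -1.10 and passed (adjusted p = 0.021), and without TKO replicate 2 it was -0.41, so single libraries set both the call and the size. The last part of Igf2bp3 overlaps Malsu1 on the opposite strand, with 34.5% of its 50-base stretches shared, and the strand setting of the counting is not given in the sources used here. Malsu1 rose, with a signal of 9.18, 10.4 and 9.12 in TKO and 4.995, 5.43 and 6.50 in WT libraries (log2 fold change 0.67 ± 0.11, limma adjusted p = 0.0037), and its part in the Igf2bp3 value was not tested.

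Igf2bp1 (chr11:95957163-96005940, minus strand) had a signal of 4.998, 2.10 and 5.75 in TKO replicates 1, 2 and 3, against 4.27, 4.37 and 3.12 in WT replicates 1, 2 and 3. TKO libraries lay on both sides of the WT libraries, with replicate 2 lowest once more. Its log2 fold change was 0.03 ± 0.30 (limma adjusted p = 0.934), and its 95% interval from -0.68 to 0.75 leaves room for sizeable changes in either direction. Median centring turned the sign, to -0.017. These values rest on 166 to 519 reads in TKO and 172 to 262 reads in WT libraries.

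Hmga1 (chr17:27556497-27563674, plus strand) had a signal of 32.6, 47.9 and 45.2 in TKO replicates 1, 2 and 3, against 32.4, 37.7 and 43.6 in WT replicates 1, 2 and 3. The groups overlapped almost fully. The difference on the log2 scale was 0.13 ± 0.17 (limma adjusted p = 0.552, 95% interval -0.27 to 0.54), and it turned to -0.17 (adjusted p = 0.331) after removal of the dependence on transcript length and GC content. The level of Hmga1 is uncertain, because much of its transcript sequence is not unique in the annotation. Its last exon also overlaps AI413582 on the opposite strand, which rose in TKO (log2 fold change 0.98 ± 0.09, limma adjusted p = 5.9e-04).

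The balance within the HMGA pair moved with Hmga2. The ratio of Hmga2 to Hmga1 signal per kilobase was 1.08, 0.344 and 0.796 in TKO replicates 1, 2 and 3, against 2.43, 1.91 and 1.47 in WT replicates 1, 2 and 3. Hmga2 exceeded Hmga1 in all WT libraries and in 1 TKO library. The ratio was 0.742, 0.668 and 1.38 in Dox and 0.385, 0.596 and 0.781 in CTL libraries, so Hmga2 was the lesser of the pair in all 3 untreated transgenic cultures. WT and CTL were normalized in separate tables and are set side by side only as ratios within a library. Each ratio, and which of the pair is the greater, rests on the uncertain level of Hmga1.

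**Figure D2:**
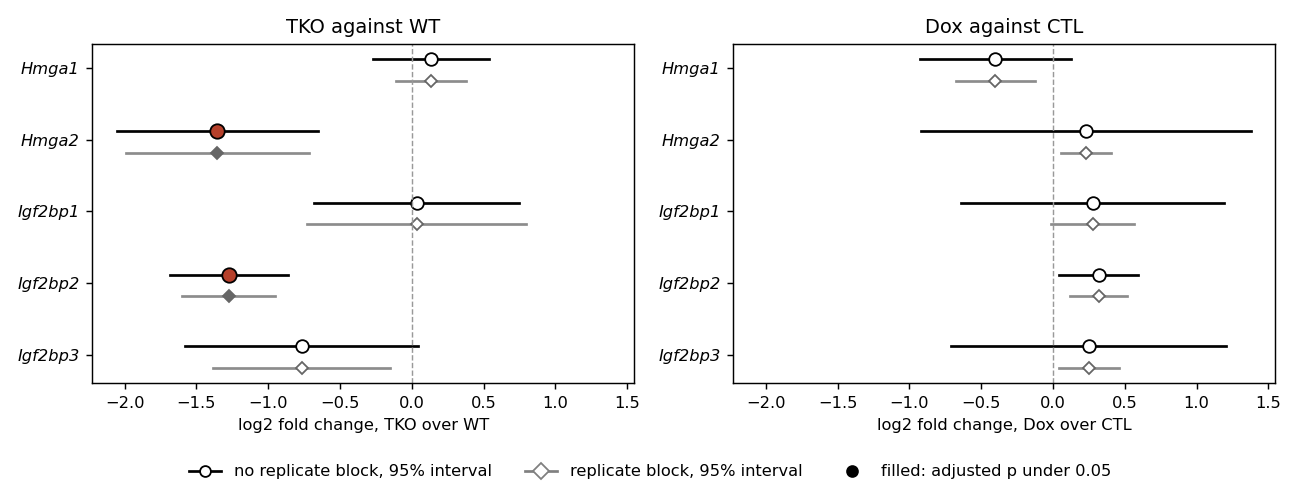
Log2 fold changes of the 5 genes (x axis) in TKO over WT (left) and Dox over CTL (right), with 95% intervals, from limma without the replicate number as a block (black) and with it (grey), where filled symbols mark an adjusted p under 0.05. Hmga2 and Igf2bp2 are filled in TKO over WT under both fits, and no gene is filled in Dox over CTL.

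Induction of miR-26a did not give a called change in any of the 5 genes in the main fit or with the replicate number as a block. In Dox against CTL, limma passed 0 of 12634 genes at the same threshold (0%), while 748 (5.92%) had an unadjusted p under 0.05. edgeR on recovered reads also called 0, and DESeq2 called 99 of the 10184 genes to which it gave an adjusted p (0.972%). Same-numbered Dox and CTL libraries deviated together, and with the replicate number as a block 265 genes (2.1%) passed, none of them among the 5. With the length and GC trend removed as well 971 genes (7.69%) passed, among them Hmga1, Hmga2 and Igf2bp2. The fold changes of the 5 genes are therefore given as values, with the ratios within each replicate number.

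Igf2bp2 had a signal of 141, 124 and 163 in Dox replicates 1, 2 and 3, against 121, 109 and 111 in CTL replicates 1, 2 and 3. Every Dox library was above every CTL library, which held for 6.5% of tested genes as higher. Dox over CTL came to 0.32 ± 0.12 on the log2 scale (SE; adjusted p = 0.794 by limma, 95% interval 0.04 to 0.59). With the replicate block the SE was 0.09 and the adjusted p 0.103, and with the trend on length and GC content removed as well the fold change was 0.32 with an adjusted p of 0.041, a fit that called 7.69% of genes.

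Hmga2 had a signal of 36.7, 53.8 and 112 in Dox replicates 1, 2 and 3, against 31.9, 48.3 and 88.8 in CTL replicates 1, 2 and 3. The replicate number separated these libraries more than the treatment did, with replicate 3 the highest and replicate 1 the lowest in both groups. Within a number the ratio of Dox to CTL was 1.15, 1.11 and 1.26. In log2 terms the difference was 0.23 ± 0.48 without the block (limma adjusted p = 0.999, 95% interval -0.92 to 1.38) and 0.23 ± 0.08 with it (adjusted p = 0.173, 95% interval 0.05 to 0.40). With block and trend removal together it was 0.24 with an adjusted p of 0.035. Macrophage markers ran the other way, with a summed signal of 120, 69.9 and 26.6 in Dox replicates 1, 2 and 3 and 147, 70.5 and 37.4 in CTL replicates 1, 2 and 3. The 4 epithelial markers did so too, at 167, 40.4 and 15.2 in Dox and 153, 31.4 and 4.43 in CTL. So did the stromal markers, at 20372, 18195 and 15825 in Dox and 19850, 17855 and 16517 in CTL. Endothelial markers followed that order as well, at 138, 91.6 and 76.4 in Dox and 105, 77.8 and 64.0 in CTL. Schwann markers ran the same way as Hmga2, at 5.3, 7.0 and 8.0 in Dox and 6.6, 8.4 and 9.2 in CTL. The part of any of these in the Hmga2 values was not tested.

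**Figure D3:**
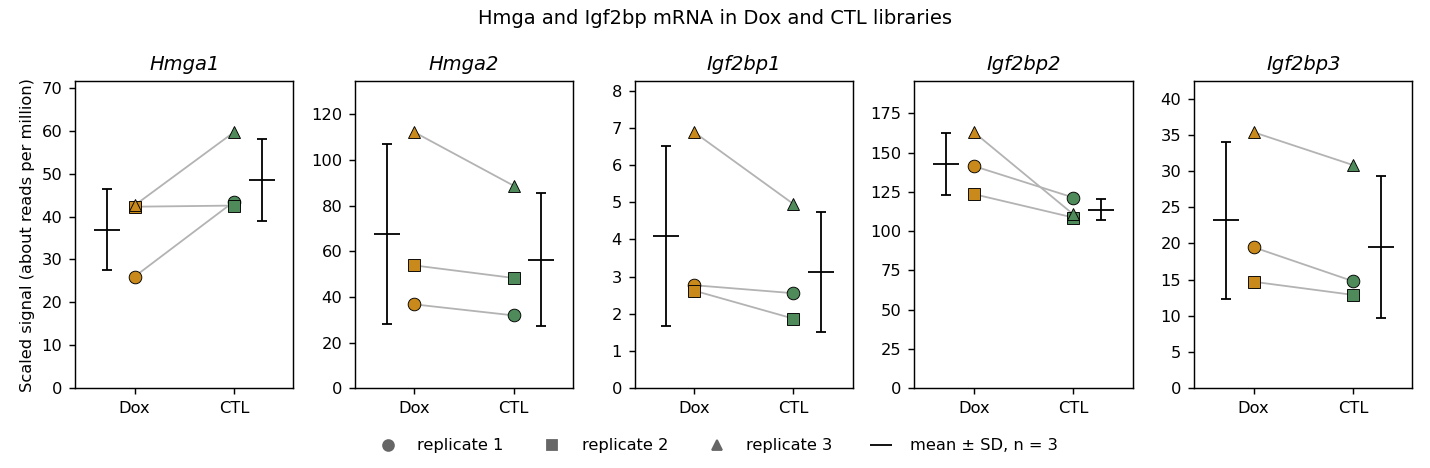
Scaled signal (close to CPM, y axis from 0) of the 5 genes in Dox (left) and CTL (right) libraries, with 1 point per library, marker shape for the replicate number, grey lines joining libraries of the same number, and a bar for the mean ± SD of 3 libraries. Replicate 3 is highest in both groups for Hmga2, Igf2bp1 and Igf2bp3, and Igf2bp2 lies higher in all 3 Dox libraries than in any CTL library.

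Igf2bp3 had a signal of 19.5, 14.7 and 35.4 in Dox replicates 1, 2 and 3, against 14.8, 12.9 and 30.8 in CTL replicates 1, 2 and 3. Replicate 3 was high in both groups, which overlapped. The ratio of Dox to CTL was 1.32, 1.14 and 1.15, and the log2 fold change was 0.25 ± 0.40 (limma adjusted p = 0.993, 95% interval -0.71 to 1.2). With the replicate block the fold change was 0.25 ± 0.09 (limma adjusted p = 0.216, 95% interval 0.04 to 0.46). Malsu1, its neighbour on the other strand, had a signal of 8.86, 12.4 and 8.86 in Dox, against 7.94, 7.66 and 8.16 in CTL.

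Igf2bp1 had a signal of 2.77, 2.62 and 6.88 in Dox replicates 1, 2 and 3, against 2.55, 1.87 and 4.95 in CTL replicates 1, 2 and 3. Replicate 3 again stood above the others. The ratio was 1.08, 1.403 and 1.39, and the log2 fold change 0.28 ± 0.39 (limma adjusted p = 0.989, 95% interval -0.64 to 1.19). With the replicate block the fold change was 0.28 ± 0.13 (limma adjusted p = 0.313, 95% interval -0.01 to 0.57). With 55 to 171 reads in Dox and 40 to 105 reads in CTL libraries, counting alone gives an error of 13.5% for the thinnest Dox library and 15.8% for the thinnest CTL library.

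Hmga1 had a signal of 26.02, 42.3 and 42.6 in Dox replicates 1, 2 and 3, against 43.5, 42.6 and 59.7 in CTL replicates 1, 2 and 3. The groups touched, and the ratio of Dox to CTL was 0.598, 0.994 and 0.714, so replicate 2 hardly differed. Without pairing, the log2 fold change was -0.40 ± 0.22 (limma adjusted p = 0.898, 95% interval -0.93 to 0.13). With the block it was -0.40 ± 0.12 (adjusted p = 0.135, 95% interval -0.68 to -0.12), and with the trend removed as well it was -0.46 with an adjusted p of 0.027.

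Read within replicate numbers, 4 of the 5 genes were higher in Dox in all 3 pairs. Hmga1 was lower in all 3, though by little in replicate 2 (ratio 0.994). Over all tested genes 21.4% were higher and 18.2% lower in every pair. The 5 genes are not independent counts, since some varied together over the Dox and CTL libraries. Pearson's r there was 0.972 for Igf2bp1 with Igf2bp3, 0.858 for Hmga2 with Igf2bp1 and 0.303 for Hmga2 with Igf2bp2. Hmga1 holds the joined-form miR-26 match printed above, and Hmga2, which holds 2 shorter ones, was among the genes that were higher. In TKO against WT the same genes had log2 fold changes of 0.13 and -1.35. Of these the Hmga1 value did not pass (limma adjusted p = 0.552) and turned to -0.17 with the length and GC trend removed. Among tested genes with a miR-26 match, 15.8% rose and 26.6% fell in TKO (median log2 fold change -0.08). Of those with none, 25.7% rose and 21.6% fell (median 0.03). Genes with a let-7 match split similarly, as 16.1% rose and 25.3% fell (median -0.06), against 25.1% and 22.1% without one (median 0.02). The length and GC trend was not removed for these shares, and the cause of either split was not tested. In Dox against CTL the median was -0.04 with a miR-26 match and 0.02 with none, and no gene was called.

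**Figure D4:**
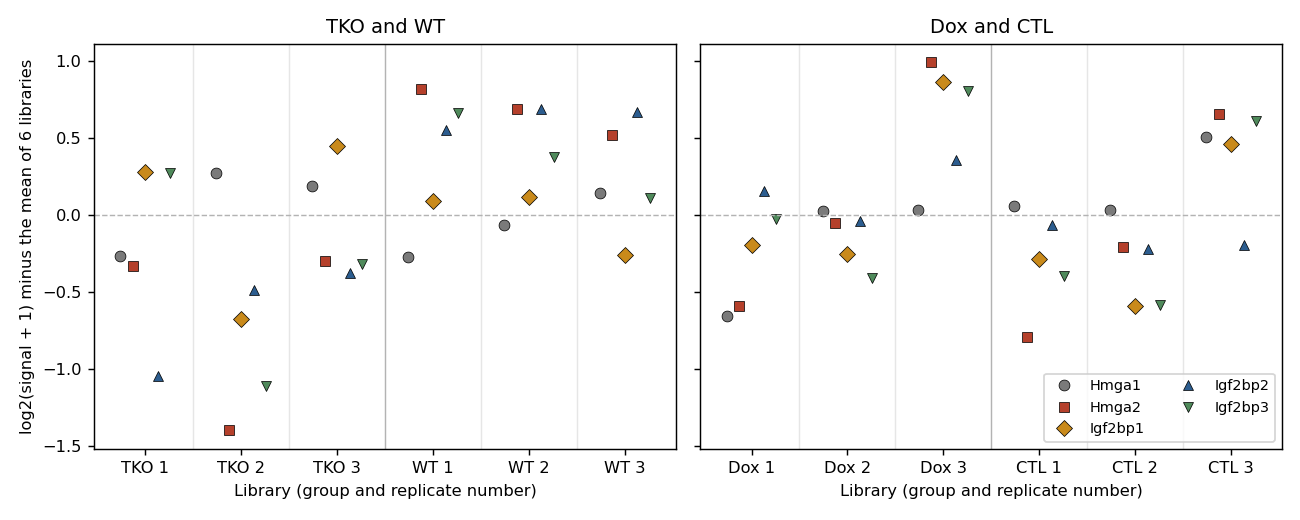
Log2(signal + 1) of each of the 5 genes minus its own mean over the 6 libraries of a comparison (y axis), for TKO and WT (left) and Dox and CTL (right) libraries (x axis). Hmga2, Igf2bp1 and Igf2bp3 are lowest in TKO replicate 2, Igf2bp2 is lowest in TKO replicate 1, and these 4 genes are highest in Dox replicate 3.

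The replicate spread differed from gene to gene. The highest over the lowest library was 3.05 for Hmga2 in Dox, 2.78 in CTL and 2.18 in TKO, against 1.23 in WT. For Igf2bp2 the same ratio was 1.32 in Dox, 1.12 in CTL, 1.603 in TKO and 1.10 in WT. Hmga2, Igf2bp1 and Igf2bp3 were lowest in TKO replicate 2 of the TKO and WT libraries, while Igf2bp2 was lowest in TKO replicate 1 and Hmga1 in WT replicate 1. Of the Dox and CTL libraries, Dox replicate 3 was highest for Hmga2 and all 3 Igf2bp genes, and CTL replicate 3 for Hmga1.

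The genes most like each of the 5 were found from Pearson's r over the 12 libraries, with each table centred on its own mean, among 9932 or 9933 genes with a mean signal of at least 5. This is a description, and the points share libraries, depth and group. Hmga2 was followed most closely by Meg3 (r = 0.985), a maternally expressed non-coding RNA, Cobll1 (0.976) and the protocadherin Pcdh7 (0.971). Igf2bp2 was followed by Raph1 (0.986), Tmem97 (0.980) and the nuclear receptor coactivator Ncoa3 (0.978). Igf2bp3 was followed by the integrin Itgav (0.984), Calu (0.974) and Emp1 (0.966). Igf2bp1 had Tes (0.950), Nbea (0.926) and Nt5dc3 (0.924), and Hmga1 had looser partners in Map3k12 (0.922), Ccdc136 (0.907) and Coro1b (0.870). No gene appeared under more than 1 of the 5.

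The rest of the let-7 and Lin28 pathway was described from a list of 8 genes. Of the 5 tested in TKO against WT, 3 fell and none rose, with a median log2 fold change of -0.31 beside -0.00085 over all genes. Zcchc11, which adds uridine to let-7 precursors held by Lin28, averaged 44.6 ± 7.37 in TKO and 80.0 ± 4.55 in WT (log2 fold change -0.84 ± 0.12, limma adjusted p = 0.0024). Its relative Zcchc6 changed by -0.37 and Dis3l2, the nuclease that degrades such tailed precursors, by -0.31 (adjusted p = 0.022 each), though Zcchc6 did not pass with the length and GC trend removed. Trim71 was under the level filter, at 0.201 ± 0.071 in TKO and 0.521 ± 0.244 in WT, and Lin28a and Lin28b were not analysed here.

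Other high mobility group proteins, which share a name and a chromatin role with HMGA but not the AT-hook family, mostly fell. Of the 11 tested, 8 fell and 1 rose in TKO, with a median of -0.38, and 6 fell and 2 rose with the length and GC trend removed. The shares over all tested genes were 22.7% lower and 23.2% higher without that removal. Hmgb1, a DNA-bending protein, averaged 109 ± 6.46 in TKO and 168 ± 3.40 in WT (log2 fold change -0.63 ± 0.06, limma adjusted p = 7.2e-04). The nucleosome-binding Hmgn5 changed by -0.72 (adjusted p = 0.0060). Hmgn1 went the other way, with 172 ± 3.70 in TKO and 80.4 ± 2.94 in WT (log2 fold change 1.09 ± 0.06, adjusted p = 1.8e-04).

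Of 10 genes reported under Hmga control, 3 fell (22.7% of all tested genes fell) and none rose in TKO, with a median of -0.09. That median turned to 0.03 under library-size scaling, which shifts the median gene by 0.12. With the length and GC trend removed 4 fell and none rose, and the median was -0.19. Without that removal, Snai2 (-0.57 ± 0.11, limma adjusted p = 0.0062) and Snai1 (-0.66 ± 0.21, adjusted p = 0.039), transcription factors of mesenchymal identity, fell. So did the S-phase cyclin Ccna2 (-0.56 ± 0.16, adjusted p = 0.026). The adipogenic factors Cebpb and Pparg, at 0.46 and -0.09, did not pass. Among 14 proliferation genes 3 rose (23.2% of all tested genes rose) and 1 fell, with a median of 0.03 (-0.03 after median centring). The antigen of cycling cells Mki67 averaged 201 ± 41.3 in TKO and 420 ± 33.4 in WT (-1.08 ± 0.15, adjusted p = 0.0019). Cdc20, an activator of the anaphase-promoting complex, rose by 0.99 ± 0.11 (adjusted p = 9.6e-04) and the mitotic kinase Cdk1 by 0.52 ± 0.11 (adjusted p = 0.0084).

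Partners that share ribonucleoprotein particles with IGF2BPs were described next. Of 8 tested 5 fell (22.7% of all tested genes fell) and none rose in TKO, with a median of -0.39. With the length and GC trend removed the split was 3 higher and 3 lower and the median -0.05, so the counts in each direction depend on that trend. Ybx1, a cold-shock domain protein that coats messenger RNA, fell under both settings, with 368 ± 13.1 in TKO and 819 ± 73.9 in WT (log2 fold change -1.15 ± 0.09, limma adjusted p = 3.1e-04). Stau1, which binds double-stranded RNA, also fell under both (-0.46 ± 0.06, adjusted p = 0.0015), and Syncrip fell (-0.55 ± 0.09, adjusted p = 0.0040) but did not pass with the trend removed.

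IGF2BP proteins also bind N6-methyladenosine (m6A), the commonest internal mark of messenger RNA. Among 11 writers, erasers and Yth readers of that mark, 6 fell (22.7% of all tested genes fell) and 1 rose in TKO, with a median of -0.26. With the trend removed 3 rose and 3 fell. The writer subunit Mettl14 averaged 18.3 ± 1.70 in TKO and 31.7 ± 0.132 in WT (-0.77 ± 0.08, limma adjusted p = 7.5e-04). Cbll1, another writer component, changed by -0.80 ± 0.09 (adjusted p = 9.5e-04) and the nuclear reader Ythdc1 by -0.57 ± 0.09 (adjusted p = 0.0025), and these 3 fell under both settings.

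Messenger RNAs reported as IGF2BP clients were mixed. Of the 10 tested 1 fell and 1 rose in TKO, and the median was -0.16. With the length and GC trend removed 2 fell and 2 rose, and the median was -0.05. Myc, a growth-promoting transcription factor, averaged 39.3 ± 5.93 in TKO and 97.5 ± 9.95 in WT (-1.29 ± 0.13, limma adjusted p = 6.4e-04). The laminin chain Lamb2 averaged 432 ± 24.1 in TKO and 273 ± 13.1 in WT (0.66 ± 0.07, adjusted p = 8.9e-04). Igf2 itself was near the floor, at 0.270 ± 0.128 in TKO and 0.894 ± 0.310 in WT, and was not tested.

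In the insulin-like growth factor pathway 2 of 12 genes rose and 2 fell in TKO, with a median of -0.03 that became 0.09 under library-size scaling. The binding proteins Igfbp4 (785 ± 165 in TKO, 467 ± 6.53 in WT, log2 fold change 0.73 ± 0.14, limma adjusted p = 0.0069) and Igfbp6 (147 ± 38.3 in TKO, 83.7 ± 20.9 in WT, 0.80 ± 0.24, adjusted p = 0.033) rose. The receptor Igf1r (92.9 ± 17.8 in TKO, 135 ± 2.79 in WT, -0.55 ± 0.13, adjusted p = 0.014) and its substrate adaptor Irs1 (-0.27 ± 0.08, adjusted p = 0.031) fell, and neither passed with the trend removed.

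None of the genes on these 8 lists passed in Dox against CTL without the block. Myc averaged 72.6 ± 17.5 in Dox and 61.5 ± 21.3 in CTL, and Ybx1 527 ± 50.7 in Dox and 454 ± 20.9 in CTL, and neither passed under either fit. List medians in Dox against CTL lay between -0.04 and 0.08, beside 0.01 over all genes.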

How the data were processed

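Per the labels' protocols, 12 stranded messenger RNA libraries were sequenced as 75-base single reads. Per the submitters' processing notes the tools were TopHat2 2.0.12, featureCounts 1.4.6, edgeR 3.8.6 and StringTie 1.2.2, on GRCm38 (mm10). The strand setting of the counting is not given in the sources used here. The signal deposited by the authors is a read count scaled to a common library size and normalization factor. The log2 values (fold change and mean level), each p-value and the false discovery rate in the deposited tables are the authors' own and are printed only where that table is named, and the score deposited by the authors, a test statistic, was not used. The tables list 19262 and 16785 genes, each above 0 in all its libraries. There were 0 value columns without a sample. The column names of Dox replicates 2 and 3 end in the same sequencing suffix, so these libraries, and the pairing that uses them, are identified by the replicate number alone.

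Dividing by the value of 1 read recovered whole reads (tolerance 0.1) for 100% of values in every library. The planned test depended on the unit, and since the values are scaled, limma 3.58.1 with a trend was fitted in R 4.3.3 to log2(signal + 1) for each comparison alone. Genes reaching a signal of 1 in 3 or more of the 6 libraries were tested (12649 and 12634), p-values are two-sided and adjusted by Benjamini-Hochberg over all of them, and fold changes on this scale understate changes of low genes. edgeR 4.0.16 and DESeq2 1.42.0 on recovered reads, other pseudocounts (0.5, 5), scalings, filters, a replicate block and libraries left out were alternatives. The fits were also run on simulated data with the same small spread for every gene. That does not test them at the wide spread of Hmga2 in TKO, Dox and CTL libraries. Python 3.11.15 with pandas 2.3.3, numpy 2.4.6 and matplotlib 3.10.9 did the rest. Same-numbered Dox and CTL libraries deviated from their group means together (correlations across genes 0.863, 0.584 and 0.736), so the numbers were taken to pair them, on the data and not on a label.

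The 5 genes and the lists were chosen with earlier results of these data known, so no list is independent support. Genes named are the 5, up to 3 called genes of smallest p per list, the 3 genes of highest r with each of the 5, and genes that overlap or share sequence with them. Other list members are named with values after these were seen. GENCODE vM21 gave 1 transcript per gene for length, GC content and UTR, and 99.8% of gene identifiers matched it. The planned search for protein motifs was not run. Some genes of the lists and of those sharing sequence are not reported here.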

Additional observations from a re-analysis of the deposited data

How the results depend on the processing

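The calls of Hmga2 and Igf2bp2 in TKO against WT held under all alternatives run, except that Hmga2 missed the threshold with the replicate block and without replicate 1 (-1.46, adjusted p = 0.052). Same-numbered TKO and WT libraries did not all deviate together (correlations 0.449, -0.135 and -0.293 for replicates 1, 2 and 3). Not every library correlated best with its own number, so the numbers were not taken to pair them. The replicate block there called 5101 genes, against 5796 without it, and gave Hmga2 an adjusted p of 0.014. In TKO against WT, Hmga1 reversed to -0.17 with the length and GC trend removed, with or without the block, and Igf2bp1 reversed to -0.017 with median centring. Leaving out 1 library at a time gave -1.54 to -0.99 for Hmga2, -1.10 to -0.41 for Igf2bp3 (called without TKO replicate 1), -0.18 to 0.38 for Igf2bp1 (negative without TKO replicate 1, TKO replicate 3 or WT replicate 3) and 3938 to 5723 genes called. With the block and without replicate 1, 1117 genes passed and Igf2bp1 was -0.041. Without replicate 2, 3654 passed and Igf2bp3 was called at -0.41, and without replicate 3 Igf2bp1 was -0.30.

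In Dox against CTL, leaving out 1 library at a time gave -0.52 to -0.17 for Hmga1, -0.21 to 0.61 for Hmga2 (negative without Dox replicate 3 or CTL replicate 1), -0.089 to 0.57 for Igf2bp1 and -0.092 to 0.62 for Igf2bp3 (both negative without Dox replicate 3), 0.22 to 0.42 for Igf2bp2, and 0 genes called each time. With the block and without replicate 1, 134 genes passed. Without replicate 2, 1534 passed, among them Hmga1 (-0.60), Hmga2 (0.27) and Igf2bp2 (0.39), and without replicate 3, 591 passed, among them Hmga1 (-0.36). Against 0 genes called in all 6 libraries, DESeq2 called 99, the replicate block 265, edgeR with the block (added after seeing the data) 189, and the block with the trend removed 971, among them Hmga1 (-0.46), Hmga2 (0.24) and Igf2bp2 (0.32). The cause of these differences was not tested. DESeq2 gave no adjusted p for Igf2bp1 in Dox against CTL. Depth limits Igf2bp1 most.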
